A study of Sus scrofa with 9 samples.

Results

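Porcine granulosa cells (PGCs) kept for 12 h in 300 μM H2O2 (the MOS group) were compared with untreated PGCs (the CON group, 0 μM, 12 h) by small-RNA sequencing, with 3 libraries per group. These are 6 of the 9 libraries of the study, whose other 3 received 100 μM H2O2 (the LOS group). All groups were primary cultures of granulosa cells from ovaries of LandracexYorkshire crossbred sows, grown in DMEM with fetal bovine serum, and H2O2 was the only agent that differed. Whether the 3 libraries of a group came from different animals or culture dishes is not stated in the labels, and the p-values therefore reflect only how far these libraries scattered, which may be technical. The labels and the study's methods also state different inputs of total RNA per library.

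Of the 1345 entries in the deposited table, 733 had values of 10 or more in 3 or more of the 6 libraries and were tested. An entry is 1 mature sequence, named for its closest known miRNA: R or L with a number gives bases gained or lost at the 3′ or 5′ end, ss marks a substitution, and the first letters give the species of the name (ssc is pig). The analysis centred on 338 canonical miRNAs, which carry a miR or let name, have 21 nt or more and average over 100 normalized counts in the 6 libraries. Of these, 189 had porcine names, 74 human names and 75 names from other species, with 316 distinct sequences and 235 distinct seeds. The 5 entries just above the limit averaged 101 to 110 and the 5 just below it averaged 91.9 to 98.6.

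A miRNA hairpin is cut into 2 strands, the 5p and the 3p arm, and the strand that is kept guides an Argonaute protein to mRNAs, which are repressed. Pairing depends mainly on the seed, bases 2 to 8 of the mature strand, so miRNAs with the same seed can share targets. Granulosa cells surround the oocyte, make steroid hormones and die by apoptosis when a follicle regresses, and oxidative stress is one known trigger of that death.

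The following mature strands, as deposited in DNA letters with the seed in capitals, belong to seed groups or gene clusters in which several members were called, and are shown with relatives that were not.
ssc-miR-146a-5p: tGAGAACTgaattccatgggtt
ssc-miR-146b_R+3: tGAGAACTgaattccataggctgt
ssc-miR-221-3p: aGCTACATtgtctgctgggttt
ssc-miR-222: aGCTACATctggctactgggtctc
ssc-miR-192: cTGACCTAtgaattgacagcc
ssc-miR-215_R+1: aTGACCTAtgaattgacagaca
ssc-miR-194a_R+2: tGTAACAGcaactccatgtggaa
ssc-miR-21_R+1: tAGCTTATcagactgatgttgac
hsa-miR-590-5p_1ss19GA: gAGCTTATtcataaaagtacag
ssc-miR-181a_R-1: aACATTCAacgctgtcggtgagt
ssc-miR-181b: aACATTCAttgctgtcggtgggtt
ssc-miR-181c_R+1: aACATTCAacctgtcggtgagtt
ssc-miR-181d-5p: aACATTCAttgttgtcggtgggtt
ssc-miR-19a: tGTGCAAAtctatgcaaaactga
ssc-miR-19b: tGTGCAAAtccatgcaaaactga

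The estimated depth was 7793727 to 9321692 reads per library in MOS and 8827764 to 13486271 in CON. Log2 values correlated at 0.958 to 0.967 between MOS libraries and at 0.986 to 0.990 between CON libraries. MOS3 stood apart: it correlated with the CON libraries at 0.917 to 0.921, against 0.882 to 0.888 for MOS1 and MOS2. Of the cell type markers, the gonadal miR-202 and the abundant miR-21 of granulosa cells were present in all 6 libraries. Markers of pluripotent cells were near 0, with no entry tested. Markers of other cells were also found. The leukocyte list (miR-142, miR-150, miR-223) summed to 1005 to 2098 normalized counts in MOS and 2460 to 2678 in CON. Of its 4 tested entries 0 were called. Without MOS3 2 were lower, where 81 of 338 canonical miRNAs were lower as well. The stroma and theca list was carried by miR-143. In bulk RNA, fewer cells of a type and less RNA per cell cannot be told apart.

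In MOS the canonical miRNAs that rose included miR-192 and its neighbour miR-194a, miR-146a, both strands of miR-221 and miR-222, and miR-127 and miR-136 of the DLK1-DIO3 cluster. Those that fell included miR-21, miR-19a and miR-19b, miR-181b, miR-181c and miR-181d, miR-202-5p and the lesser strands of miR-27b, miR-23b, miR-31 and miR-145. Among the 338 canonical miRNAs, 20 were called higher in MOS than in CON and 26 lower at an adjusted p under 0.05 (limma, Benjamini-Hochberg over all 733 entries). Over all 733 tested entries 24.0% were called, 18.6% higher and 5.46% lower, against 13.6% of canonical miRNAs called in either direction. The 18.6%, set beside lists of miRNAs below, includes 77 entries without a CON library at 10, which could only be higher. Of the other 656 entries 60 were higher and 40 lower. The median log2 fold change of canonical miRNAs was -0.03, against 0.07 over all entries. Only 9 of the rises and 8 of the falls reached 2-fold, where 17.5% of all tested entries were called at 2-fold. The values of MOS and CON did not overlap in 126 canonical miRNAs, 51 higher and 75 lower in MOS, against 42.0% of all entries (26.9% higher, 15.1% lower). The canonical count was 141 without MOS3 (60 higher, 81 lower), 27 without MOS2, 22 without CON1, 23 without CON2 and 26 without CON3. The balance of directions depended on scaling: with every library brought to the same total, which raised the median of all entries by 0.21 on the log2 scale, 46 canonical miRNAs were higher and 9 lower (173 and 18 of all entries, against 136 and 40). With median-of-ratios factors the split was 19 and 35 (127 and 49 of all entries). None of the 46 calls changed direction under any alternative, and 16 of them passed in every alternative they entered, 8 higher and 8 lower. These rises include cgr-miR-1973_L+6R+1, which had no CON library at 10 and could only be called higher.

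**Figure D1:**
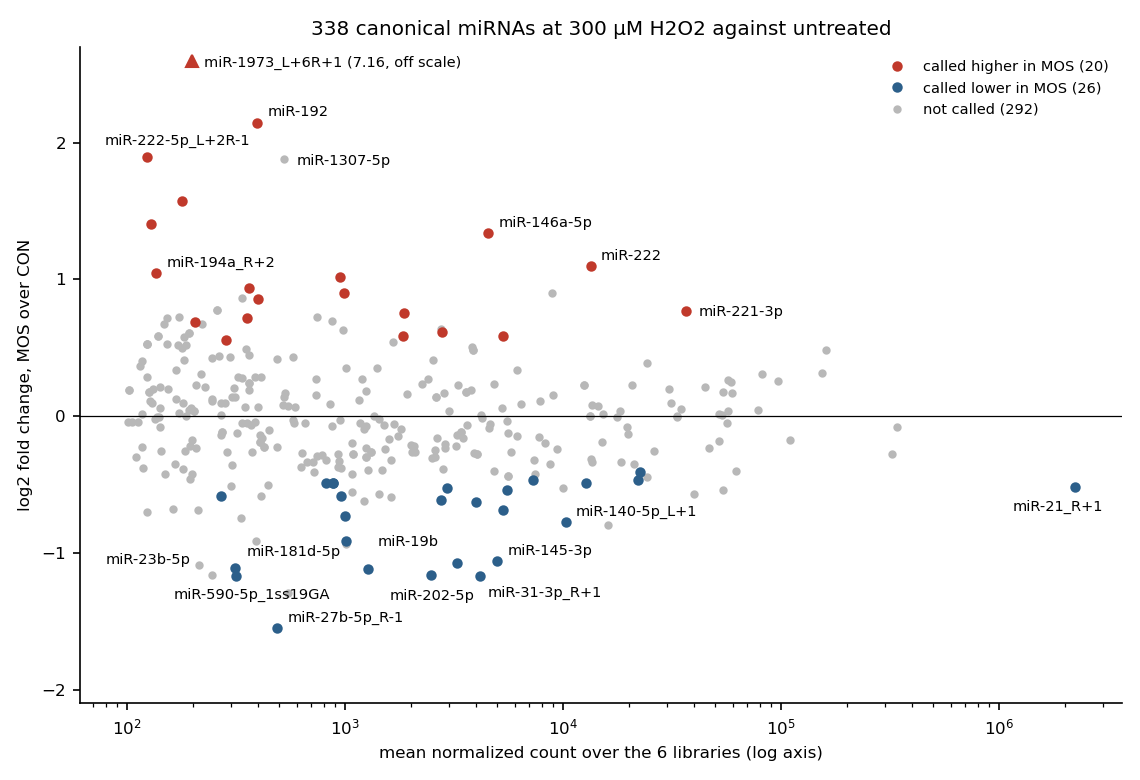
Each point is 1 of 338 canonical miRNAs, with its mean normalized count over the 6 libraries on a log axis and its log2 fold change of MOS over CON on the vertical axis. The 20 called higher include miR-192 and strands of miR-222, miR-221 and miR-146a, the lowest point among the 26 called lower is miR-27b-5p, and the triangle marks an entry beyond the axis, whose fitted value of 7.16 depends on the 1 added to counts near 0.

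The largest rise among canonical miRNAs well above 0 in CON was that of ssc-miR-192, which is known as a p53-responsive miRNA of liver and gut. It had 671, 808 and 464 normalized counts in MOS, against 153, 131 and 142 in CON. The lowest MOS library lay far above the highest CON library, and the log2 fold change was 2.15 (SE 0.23, adjusted p = 0.000526, limma). ssc-miR-194a_R+2, whose gene neighbours that of miR-192 in the Sscrofa11.1 annotation, had 172, 171 and 206 in MOS, against 92.3, 88.8 and 83.0 in CON (1.04, SE 0.17, adjusted p = 0.00557). Their relatives were higher too, at lower levels. ssc-miR-215_R+1, which has the seed of miR-192, had 157, 191 and 173 in MOS, against 16.4, 5.36 and 8.12 in CON (4.12, SE 0.39, adjusted p = 0.000361). All 4 tested entries of miR-192, miR-194 and miR-215 were therefore called higher, also with any 1 library left out. These entries are relatives by sequence or gene and were not independent of one another. The epithelial marker list, which left out miR-203a, moved with them, from far lower levels, at 172 to 358 in MOS against 6.32 to 20.5 in CON. Of the 24 tested entries of the p53-responsive list 4 were higher, all from these families. Of all entries 18.6% were higher, or 60 of the 656 with 10 in at least 1 CON library. Another 3 were lower, where 5.46% of all entries were lower. These 3 were mmu-miR-34b-5p (-1.68), mmu-miR-107-5p (-1.21) and ssc-miR-145-3p (-1.06). Without MOS3 9 of the 24 were lower, but lower calls then rose in general, to 81 of 338 canonical miRNAs. ssc-miR-34a, a classical p53 target, had 50409, 47498 and 58451 in MOS and 48694, 53961 and 51503 in CON (0.02, SE 0.11, adjusted p = 0.943). Of the 8 tested entries of the miR-34 family 2 were higher and 1 lower, and the higher ones, both named miR-449a, shared all their values (203.9, 174 and 65.6 in MOS, against 36.7, 32.6 and 38.4 in CON).

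miR-146a-5p lowers the signal adaptors TRAF6 and IRAK1 and so restrains NF-κB, which induces it. ssc-miR-146a-5p had 5829, 7671 and 6107 normalized counts in MOS, against 2605, 2457 and 2624 in CON. The groups were wide apart (a log2 change of 1.34 with an SE of 0.13, adjusted p = 0.000361, limma). Both of its tested 3′-extended forms moved with it, mmu-miR-146a-5p_R+1 by 1.58 and mmu-miR-146a-5p_R+2 by 1.40. ssc-miR-146b_R+3, which has the same seed but another gene, had 687, 840.0 and 786 in MOS, against 765, 589 and 727 in CON. Its groups overlapped (0.16, SE 0.16, adjusted p = 0.518), and the difference between the rises of miR-146a and miR-146b was not tested.

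miR-221 and miR-222 share a seed, repress the cell cycle inhibitor p27 and lie side by side in the genome. ssc-miR-221-3p had 51203, 44274 and 42543 normalized counts in MOS, against 22896, 27373 and 31282 in CON (a log2 change of 0.77 with an SE of 0.14, adjusted p = 0.00896). ssc-miR-222 had 22494, 18165 and 14216 in MOS, against 7635, 7597 and 10269 in CON (1.10, SE 0.20, adjusted p = 0.00863). Neither pair of groups overlapped, although both calls missed the threshold without MOS2 (adjusted p = 0.0502 and 0.0665). The lesser strands of both hairpins rose as well. ssc-miR-221-5p_R-2 had 1441, 1414 and 1020 in MOS, against 810, 512 and 771 in CON (0.90, SE 0.23, adjusted p = 0.0296). hsa-miR-222-5p_L+2R-1 had 178.3, 224.3 and 182.03 in MOS, against 49.3, 49.1 and 55.9 in CON (1.90, SE 0.19, adjusted p = 0.00037). With miR-9, of which ssc-miR-9-2 was called (0.56, adjusted p = 0.0496), the list of NF-κB feedback miRNAs had 8 of its 14 tested entries higher and 0 lower. Of all entries 18.6% were higher and 5.46% lower. The median of the list was 0.83, against 0.07 over all entries. The 8 were 3 forms of miR-146a, 4 strands of miR-221 and miR-222, and ssc-miR-9-2, so they were not independent of one another. The list was chosen with earlier results of these data known. The call of ssc-miR-9-2 was lost in 14 of 19 alternatives. Without MOS2 4 entries of the list were higher and without CON2 5. Without MOS3 12 were, where 60 of 338 canonical miRNAs were higher. Exceptions in the list were miR-146b, miR-155 and the miR-9-3p entries. ssc-miR-155-5p_R+2 had 19397, 16503 and 10923 in MOS and 15815, 14533 and 14809 in CON.

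**Figure D2:**
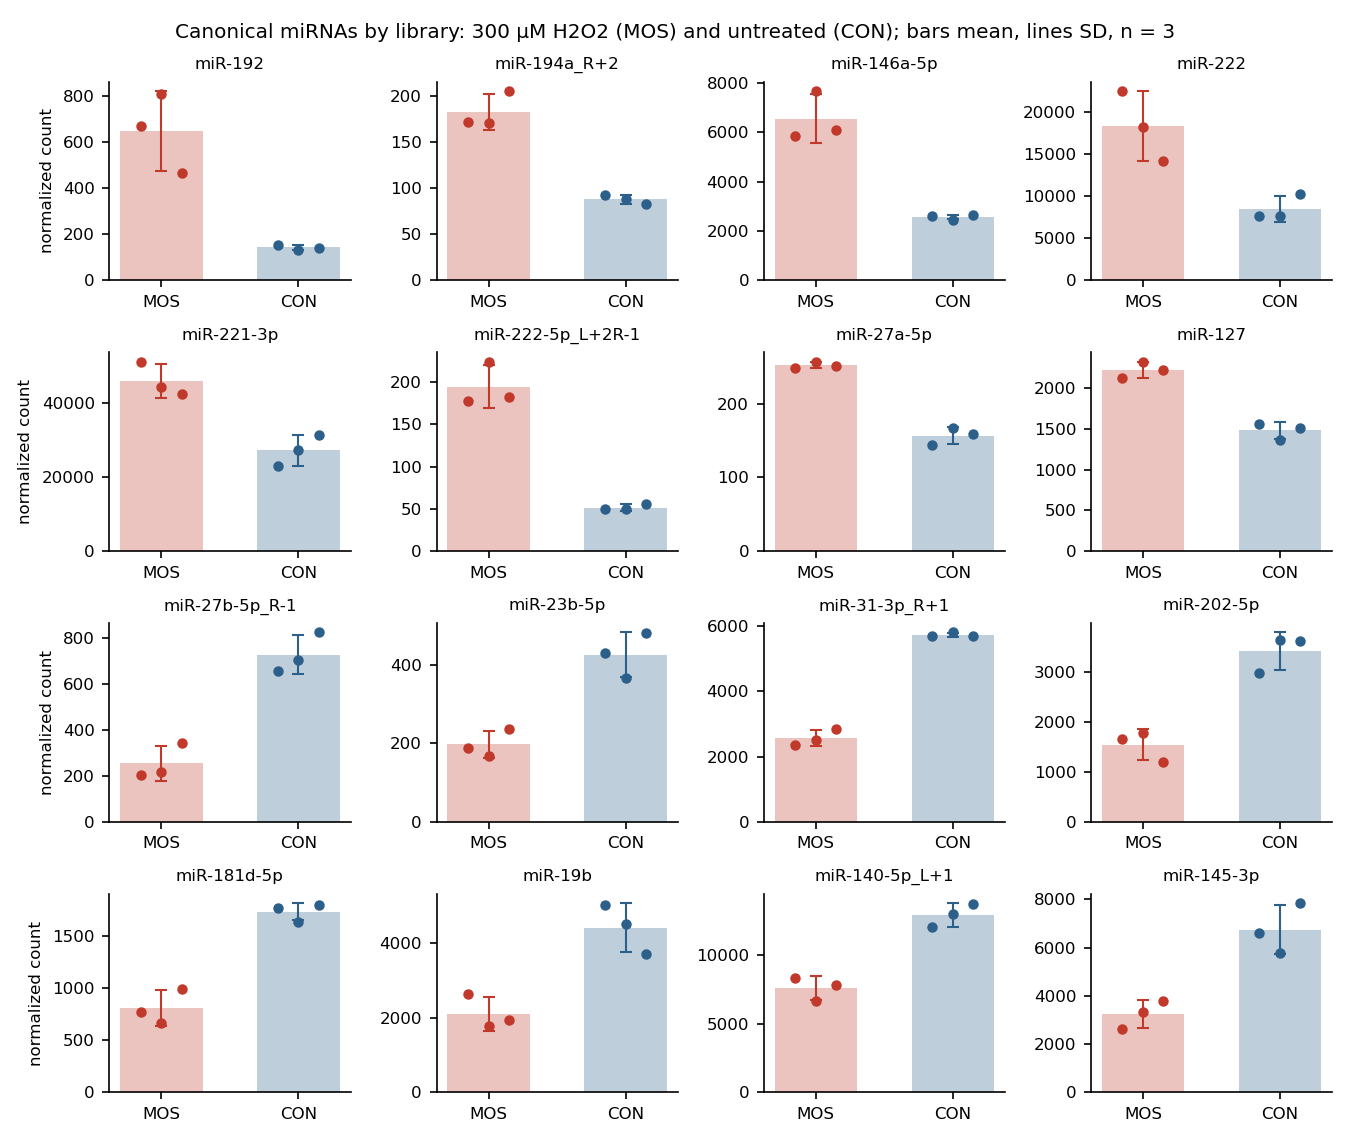
Normalized counts of 16 canonical miRNAs in each library, with points for the 3 libraries of MOS (red) and CON (blue), bars for the mean and lines for the SD. In all 16 panels the MOS and CON libraries did not overlap, 8 being higher in MOS (upper rows) and 8 lower (lower rows).

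The imprinted DLK1-DIO3 cluster is a long row of miRNA genes that is active in embryonic and placental tissue. Of its 53 tested entries 8 were called higher and 0 lower. Of all tested entries 18.6% were higher, or 60 of the 656 with 10 in at least 1 CON library. Among canonical miRNAs 3 of its 20 were higher, beside 20 of all 338. Without CON1, CON2 or CON3 the list had 2, 3 and 4 higher. ssc-miR-127 had 2128, 2325 and 2230 normalized counts in MOS, against 1562, 1368 and 1516 in CON (a log2 change of 0.59 with an SE of 0.11, adjusted p = 0.00918, limma). Its neighbour in the annotation, hsa-miR-136-3p_L-1, had 384, 543 and 497 in MOS, against 203, 265 and 273 in CON (0.94, SE 0.20, adjusted p = 0.0157). bta-miR-758_R-1 had 481, 477 and 587 in MOS, against 252, 293 and 308 in CON (0.85, SE 0.16, adjusted p = 0.00908). The groups of these 3 entries did not overlap. Among the rises outside these families, ssc-miR-769-5p_R+1 had 1414, 1553 and 864 in MOS, against 492, 586 and 794 in CON (1.02, SE 0.28, adjusted p = 0.0378). This call was lost in 8 of 19 alternatives (adjusted p up to 0.159, limma). One entry, cgr-miR-1973_L+6R+1, stood at 594, 528 and 58.5 in MOS and at 0, 0 and 5.41 in CON, with MOS3 far below the other MOS libraries. It passed the filter through MOS alone, so that it could only be called higher.

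Among the falls were several pairs with a common seed. miR-19a and miR-19b, which come from the miR-17-92 cluster, were both lower in MOS. ssc-miR-19b had 2622, 1772 and 1929 normalized counts in MOS, against 5011, 4506 and 3709 in CON (a log2 change of -1.07 with an SE of 0.19, adjusted p = 0.0067). ssc-miR-19a had 964, 583 and 589 in MOS, against 1559, 1304 and 1083 in CON (-0.91, SE 0.24, adjusted p = 0.0347). Other products of the same cluster did not pass: ssc-miR-17-5p came to -0.43 (adjusted p = 0.12), and ssc-miR-92a had 29081, 27917 and 12457 in MOS and 19039, 18115 and 18155 in CON (0.23, adjusted p = 0.643). Of the 9 canonical entries from that gene cluster, 2 were thus lower and 0 higher. The call of ssc-miR-19a was lost in 8 of 19 alternatives, among them equal library totals and every library left out but MOS1 (adjusted p up to 0.148).

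The miR-181 family, which has a single seed over 4 mature miRNAs, had 3 of 6 tested entries lower and 0 higher, where 5.46% of all entries were lower. ssc-miR-181d-5p had 775, 664 and 999 normalized counts in MOS, against 1768, 1642 and 1798 in CON (a log2 change of -1.11 with an SE of 0.17, adjusted p = 0.00392, limma). ssc-miR-181b fell by 0.61 (adjusted p = 0.0141) and ssc-miR-181c_R+1 by 0.53 (adjusted p = 0.0186) on the log2 scale. With equal library totals, miR-181b and miR-181c no longer passed (adjusted p = 0.068 and 0.106). Without MOS2 or CON2 the family had 2 of 6 entries lower, and without CON1 or CON3 it had 1. Without MOS1 or MOS3 the count stayed at 3. ssc-miR-181a_R-1 had 11218, 10769 and 6767 in MOS, against 9233, 8327 and 7723 in CON, with overlapping groups (0.15, SE 0.21, adjusted p = 0.637). In the annotation miR-181c and miR-181d lie together in a cluster of their own, and miR-181b lies beside miR-181a.

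ssc-miR-21_R+1, a miRNA known from mouse to protect granulosa cells from apoptosis, was the most abundant entry and took 38.0, 35.0 and 35.4% of the normalized total in MOS, against 40.5, 47.5 and 46.5% in CON. The groups of the share did not overlap (exact permutation test, two-sided, p = 0.1, the smallest that 3 against 3 allows), and the log2 fold change of the level was -0.52 (SE 0.12, adjusted p = 0.0199, limma). The call was lost without MOS2, CON2 or CON3 (adjusted p up to 0.169) and with equal library totals (0.074). The fall in the total moved with it: totals were 5117859, 4967112 and 5049951 in MOS, against 5578704, 5871357 and 6084944 in CON, while the totals without this entry overlapped, at 3173153 to 3263390 in MOS and 3082166 to 3317293 in CON (exact permutation test, p = 0.9). hsa-miR-590-5p_1ss19GA, which has the seed of miR-21, had 185, 139 and 273 normalized counts in MOS, against 388, 512 and 405 in CON (-1.17, SE 0.27, adjusted p = 0.0199). Its partner strand hsa-miR-590-3p was lower by a smaller amount (-0.46, adjusted p = 0.0458).

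Other falls were those of single strands. ssc-miR-202-5p, a miRNA largely restricted to gonads, had 1662, 1781 and 1188 normalized counts in MOS, against 2979, 3633 and 3623 in CON (a log2 change of -1.16 with an SE of 0.18, adjusted p = 0.00448). The other strand, ssc-miR-202-3p_R+2, had 12.5, 10.2 and 15.2 in MOS, against 5.06, 18.8 and 11.7 in CON (0.23, adjusted p = 0.768). ssc-miR-140-5p_L+1, best known from cartilage, had 8378, 6649 and 7822 in MOS, against 12079, 13008 and 13788 in CON (-0.77, SE 0.12, adjusted p = 0.00435). ssc-miR-145-3p, from the smooth muscle and stroma hairpin miR-145, had 2647, 3333 and 3771 in MOS, against 6610, 5790 and 7836 in CON (-1.06, SE 0.17, adjusted p = 0.0055). ssc-miR-143-3p, from the gene beside miR-145, had 219125, 277482 and 396440 in MOS, against 345386, 372655 and 330646 in CON, with overlapping groups (-0.27, SE 0.21, adjusted p = 0.388). Over the whole stroma and theca list 1 entry of 8 was higher and 1 lower, and the leukocyte marker ssc-miR-142-3p, at 202, 243 and 590.5 in MOS and 763, 792 and 707 in CON, missed the threshold (adjusted p = 0.0534). Whether a change in the mix of cells had a part in these falls was not tested.

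Composition moved with direction among canonical miRNAs. The 26 called lower had a median GC content of 40% and the 20 called higher one of 47.6%. Of 88 canonical miRNAs with GC under 40%, 5 were higher and 13 lower with a median log2 fold change of -0.25, while of 141 with GC of 50% or more, 8 were higher and 3 lower with a median of 0.06. With 109 entries between these bounds, 7 were higher and 10 lower. The part of base composition in any single call was not tested.

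Several large families had few calls or none. The let-7 family, which restrains proliferation, had 0 of 20 canonical entries higher and 1 lower, and its most abundant member, ssc-let-7a, had 82088, 78306 and 79332 normalized counts in MOS, against 77174, 76596 and 78530 in CON (log2 fold change 0.05, SE 0.08). Canonical entries of the miR-30, miR-29 and miR-10 families had 0 calls in either direction, over 8, 4 and 3 entries. The 17 canonical entries of the list of miR-15, miR-16, miR-424 and miR-503 and the 5 of miR-148 and miR-152 also had 0 calls. Without MOS3, 2 of 25 tested let-7 entries were higher and 4 lower, 5 of 11 miR-30 entries and 1 of 7 miR-29 entries were lower, 1 of 3 miR-10 entries was higher and 1 lower, and the list with miR-15 and miR-503 had 2 of 24 higher and 5 lower. ssc-miR-210, the classical hypoxia miRNA, had 3087, 2775 and 3204 in MOS and 2448, 3151 and 2486 in CON (0.17, SE 0.14, adjusted p = 0.405). Over the whole oxidative stress and hypoxia list 5 of 41 tested entries were higher and 9 lower, beside 18.6% and 5.46% of all entries, with a median of -0.05. The rises were those of miR-141, miR-200a, miR-23a-5p, miR-27a-5p and a shortened miR-424-5p, and the falls included strands of miR-28, miR-335, miR-140, miR-181c and miR-21. Without MOS3 the list had 9 higher and 13 lower. The granulosa and follicle list likewise had 7 of 57 tested entries higher, 4 of them strands of miR-221 and miR-222, and 6 lower, beside the same shares of all entries, with a median of 0.07. Without MOS3 the counts were 18 and 13. All counts without MOS3 in this paragraph stand beside a general rise in calls. Among the 338 canonical miRNAs, leaving out MOS3 took the calls from 20 higher and 26 lower to 60 and 81.

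The arms of a hairpin come from 1 precursor, so their ratio shows whether strands moved together. Over 147 pairs of tested arms from 141 hairpins, the log2 ratio of 5p to 3p did not overlap between MOS and CON in 60. Of these 31 were higher in MOS and 29 lower, with a smallest exact permutation p of 0.1 per pair. That share is close to the 42.0% of all tested entries whose values did not overlap between the groups. In 5 hairpins both arms were called, and always in 1 direction: miR-221 and miR-222 upward, and miR-28, miR-335 and miR-590 downward. Some of these calls were weak: over 19 alternatives hsa-miR-590-3p lost its call in 14, hsa-miR-335-3p in 9, ssc-miR-221-5p_R-2 in 8 and cgr-miR-28-3p in 6. A single arm was called in 27 pairs. For miR-335, ssc-miR-335_R+1 had 3023, 2707 and 3730 normalized counts in MOS, against 5104, 4705 and 4716 in CON (a log2 change of -0.63 with an SE of 0.14, adjusted p = 0.0186), and hsa-miR-335-3p came to -0.58 (adjusted p = 0.0392). For miR-28, cgr-miR-28-5p_R+1 had 4570, 4241 and 4680 in MOS, against 6871, 6441 and 6307 in CON (-0.54, SE 0.10, adjusted p = 0.00771), beside -0.69 for its 3p arm.

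The lesser strands of the paralogous clusters miR-23a/27a and miR-23b/27b moved in opposite directions, and their sequences are shown with the seed in capitals because both pairs are close relatives.
hsa-miR-23a-5p: gGGGTTCCtggggatgggattt
hsa-miR-27a-5p: aGGGCTTAgctgcttgtgagca
hsa-miR-23b-5p: tGGGTTCCtggcatgctgattt
ssc-miR-27b-5p_R-1: aGAGCTTAgctgattggtgaac

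The 5p strands of the cluster that holds miR-23a and miR-27a were higher in MOS. hsa-miR-27a-5p had 249, 257 and 251 normalized counts in MOS, against 144, 167 and 159 in CON (a log2 change of 0.69 with an SE of 0.15, adjusted p = 0.0169, limma). hsa-miR-23a-5p, a low entry that is not among the canonical ones, had 91.0, 147 and 44.4 in MOS, against 12.6, 19.6 and 15.3 in CON (2.36, SE 0.45, adjusted p = 0.0101). The 5p strands of the other cluster were lower. hsa-miR-23b-5p had 188, 168 and 235 in MOS, against 430, 366 and 480 in CON (-1.11, SE 0.19, adjusted p = 0.00647). ssc-miR-27b-5p_R-1, with the deepest fall of all canonical miRNAs, had 203, 215.4 and 341 in MOS, against 656, 701 and 822 in CON (-1.55, SE 0.23, adjusted p = 0.00358). The groups of these 4 strands did not overlap. The abundant 3p strands, of which miR-27 is known to repress the adipogenic factor PPARG, did not pass in either cluster: log2 fold changes were 0.31 for ssc-miR-27a, -0.08 for ssc-miR-27b-3p, -0.23 for ssc-miR-23a_R+1 and -0.40 for ssc-miR-23b_R+1, with adjusted p of 0.0543, 0.677, 0.226 and 0.106.

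**Figure D3:**
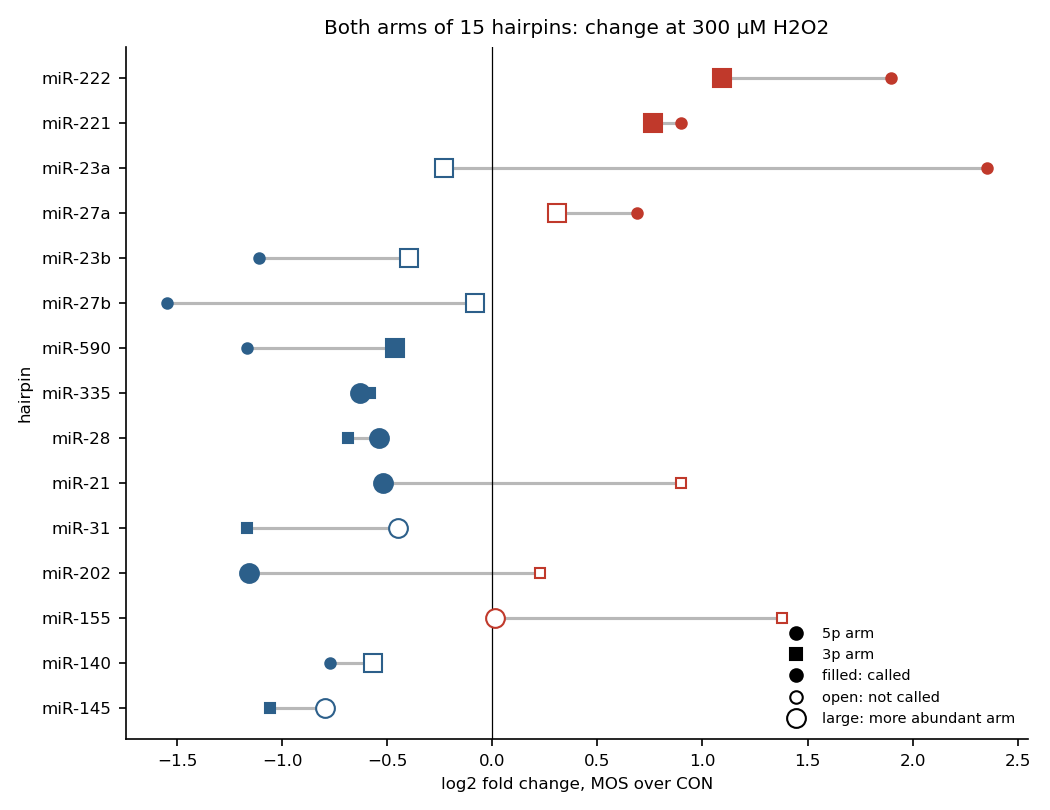
Log2 fold change of MOS over CON for the 5p arm (circle) and the 3p arm (square) of 15 hairpins, chosen after their values were seen, with the more abundant arm drawn larger and called arms filled. Both arms of miR-222 and miR-221 lie to the right and both of miR-590, miR-335 and miR-28 to the left, while the lesser strands of miR-23a and miR-27a lie on the other side of 0 from those of miR-23b and miR-27b.

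In other hairpins the arms differed in size or direction. hsa-miR-31-3p_R+1, which is the minor product of its hairpin, had 2354, 2508 and 2834 normalized counts in MOS, against 5696, 5809 and 5713 in CON (a log2 change of -1.17 with an SE of 0.11, adjusted p = 0.000361, limma), while ssc-miR-31_R+1 came to -0.45 (adjusted p = 0.0588). The 3p strand of miR-21, hsa-miR-21-3p_1ss6CG, had 12684, 16479 and 6453 in MOS, against 6208, 5840 and 5746 in CON. It lay above CON in every MOS library without passing (0.90, SE 0.32, adjusted p = 0.094), and with the fall of the 5p strand the log2 ratio of 5p to 3p averaged 7.36 in MOS and 8.78 in CON. Both star strands of miR-26a, a miRNA that restrains growth, were lower. mmu-miR-26a-2-3p_1ss4GA had 29.9, 24.2 and 39.0 in MOS, against 88.5, 92.0 and 86.6 in CON (-1.52, SE 0.24, adjusted p = 0.00459). hsa-miR-26a-1-3p was listed at 0 in all 3 MOS libraries, against 26.5, 18.8 and 17.1 in CON. It passed the filter through CON alone, so that it could only be called lower. The main strand ssc-miR-26a had 97863, 107682 and 104879 in MOS, against 114876, 109294 and 125650 in CON, a change that did not pass (-0.17, SE 0.10, adjusted p = 0.248). A single library set the ratio of miR-1307: hsa-miR-1307-5p had 2409, 271 and 118 in MOS, against 87.2, 138 and 126 in CON (1.88, SE 1.01, adjusted p = 0.234).

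Forms of 1 miRNA that differ in length at the 3′ end did not change alike. This set was chosen after its values were seen. The forms of miR-574-5p are shown from long to short, with the seed in capitals, because miR-574-5p was the only one of 62 miRNAs with several forms in which forms were called in both directions.
hsa-miR-574-5p_R+2: tGAGTGTGtgtgtgtgagtgtgtga
hsa-miR-574-5p_R+1: tGAGTGTGtgtgtgtgagtgtgtg
hsa-miR-574-5p: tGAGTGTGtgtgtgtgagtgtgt
hsa-miR-574-5p_R-1: tGAGTGTGtgtgtgtgagtgtg
hsa-miR-574-5p_R-2: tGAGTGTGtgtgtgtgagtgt
hsa-miR-574-5p_R-3: tGAGTGTGtgtgtgtgagtg

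The form of 24 nt, hsa-miR-574-5p_R+1, had 36.2, 44.0 and 50.4 normalized counts in MOS, against 102, 79.5 and 71.7 in CON, and fell by 0.94 on the log2 scale (SE 0.24, adjusted p = 0.0298, limma). The form of 23 nt had 262, 265 and 257 in MOS, against 345, 329 and 273 in CON, without passing (-0.26, adjusted p = 0.26). The form of 22 nt, hsa-miR-574-5p_R-1, had 68.6, 72.7 and 66.1 in MOS, against 40.4, 47.3 and 36.1 in CON, a rise of 0.74 (SE 0.21, adjusted p = 0.044). The form of 20 nt also rose, by 0.92 (adjusted p = 0.0446), while those of 25 nt (-0.79, adjusted p = 0.0706) and 21 nt (0.15, adjusted p = 0.644) did not pass. A longer form was thus lower and shorter ones higher within a single mature miRNA, and the summed forms came to -0.16 (adjusted p = 0.43). miR-339 is shown with these 3 forms because its shorter forms were called and the full one was not.
ssc-miR-339_R+1: tCCCTGTCctccaggagctcac
ssc-miR-339_R-1: tCCCTGTCctccaggagctc
ssc-miR-339_R-2: tCCCTGTCctccaggagct

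The miR-339 form of 22 nt had 5736, 5415 and 6196 normalized counts in MOS, against 5080, 7094 and 7269 in CON, with overlapping groups. The form of 20 nt had 940, 1076 and 1027 in MOS, against 476, 721 and 677 in CON (a log2 change of 0.72 with an SE of 0.18, adjusted p = 0.0302). The form of 19 nt had 46.1, 51.6 and 40.6 in MOS, against 8.22, 14.3 and 13.1 in CON (1.90, SE 0.29, adjusted p = 0.00391). Among all 29 tested forms that lacked bases at the 3′ end, which belonged to 24 miRNAs, the ratio to the full form was higher in MOS in 28. In 20 of these the 6 ratios did not overlap, 0 forms were lower without overlap, and the median difference in the log2 ratio was 0.82. Restricted to forms with at least 10 normalized counts in all 6 libraries, which could have moved either way, the ratio was higher in 20 of 21 with a median of 0.59. By library, the median log2 ratio of these 21 forms overlapped between the groups. It was -3.94, -3.74 and -3.76 in MOS, against -3.85, -3.88 and -4.07 in CON (exact permutation test, p = 0.3). The 15 tested forms with extra 3′ bases had 7 ratios higher and a median of -0.02, and the difference from the shortened forms was not tested. Summed over the 29 forms, the shorter forms came to 2.05, 2.41 and 2.06% of their full forms in MOS. In CON the ratio was 1.33, 1.52 and 1.37% (exact permutation test, p = 0.1). A full form was counted once for each of its shorter forms. In the LOS libraries the ratio was 1.22 to 1.33%.

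**Figure D4:**
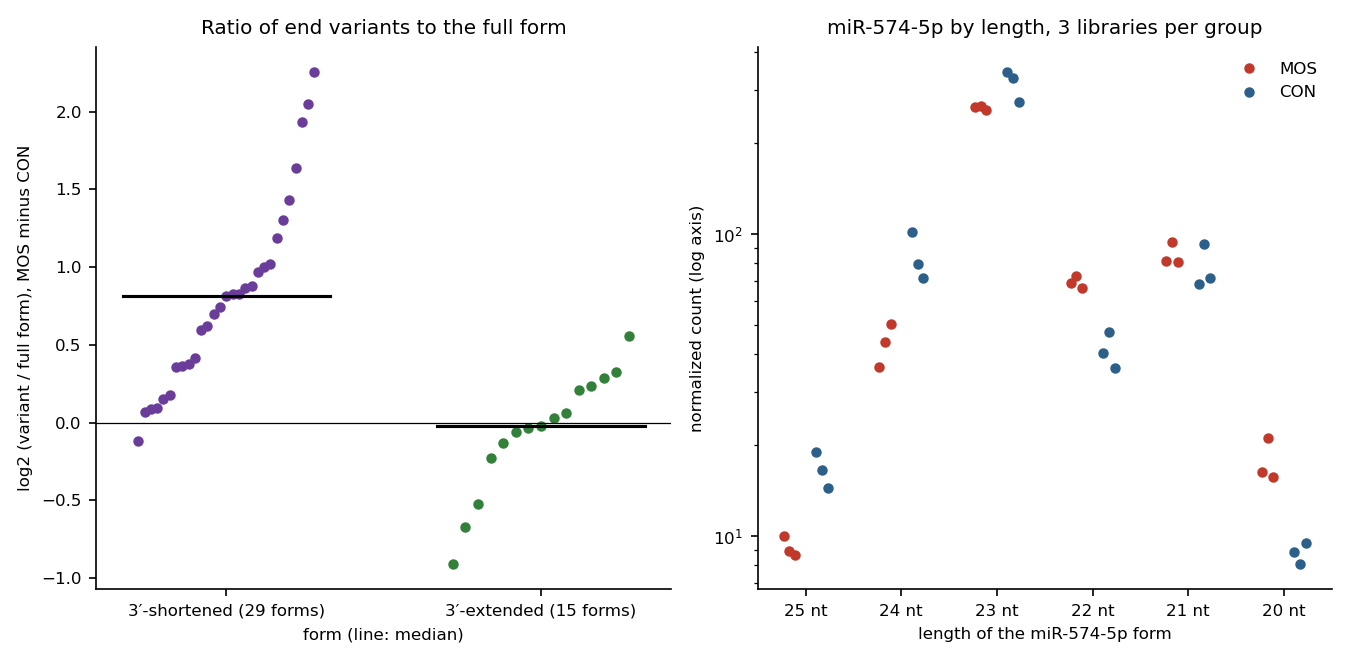
Left, the difference between MOS and CON in the log2 ratio of a 3′ end variant to its full form, with 1 point per tested form and a line at the median (0.82 for 29 shortened forms, -0.02 for 15 extended forms). Right, normalized counts on a log axis of 6 forms of miR-574-5p by length, 3 libraries each of MOS (red) and CON (blue), with the form of 24 nt called lower and those of 22 and 20 nt called higher in MOS.

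Of the 395 tested entries outside the canonical set 116 were called higher in MOS and 14 lower. Named entries of 18 to 20 nt had 27 of 76 higher and 0 lower, with a median log2 fold change of 0.69, and without CON1 or CON3 11 and 12 of them passed. Predicted arms, which are hairpin strands without a miRBase name of their own, had 50 of 95 higher and 3 lower. Predicted candidates with no known hairpin had 17 of 54 higher and 2 lower. Many could hardly fall, because 48 of the 95 predicted arms and 13 of the 54 candidates had no CON library at 10 and passed the filter through MOS alone. With at least 10 normalized counts in 1 or more CON libraries, 2 of 47 predicted arms were higher and 3 lower, 4 of 41 candidates were higher and 2 lower, and the named short entries kept 20 of 68 higher and 0 lower. The predicted arms also repeated one another, since 55 of the 95 shared all 6 values with another entry. Of all 656 entries that passed this condition 60 were higher and 40 lower.

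Among the named short entries, ssc-miR-4332_L-1_1ss20CA, a GC-rich sequence of 19 nt, had 2107, 2590 and 3955 normalized counts in MOS, against 22.8, 32.1 and 34.3 in CON (a log2 change of 6.52 with an SE of 0.28, adjusted p = 1.29e-05, limma). hsa-miR-1281_R+2_1ss14TC was listed at 0 in every CON library and had 83.5, 122 and 113 in MOS. Among predicted arms, mmu-mir-6240-p5_1ss1TG was also listed at 0 in CON, with 355, 373 and 93.2 in MOS. sha-mir-24-1-p3_1ss2GC was an exception with 187, 199 and 160 in MOS, against 377, 435 and 440 in CON (-1.19, SE 0.16, adjusted p = 0.00207). Among candidates, PC-3p-21755_72 was listed at 0 in CON and had 79.2, 122 and 212 in MOS. PC-5p-44499_24 was listed at 0 in all MOS libraries, with all 3 CON libraries above 10 (10.1 the lowest). It passed the filter through CON alone and could only be lower. Entries of 18 to 20 nt together made up 0.488, 0.732 and 0.63% of the normalized total in MOS, against 0.302, 0.34 and 0.243% in CON (exact permutation test, p = 0.1). The canonical set made up 99.0 to 99.2% in MOS and 99.4 to 99.5% in CON.

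**Figure D5:**
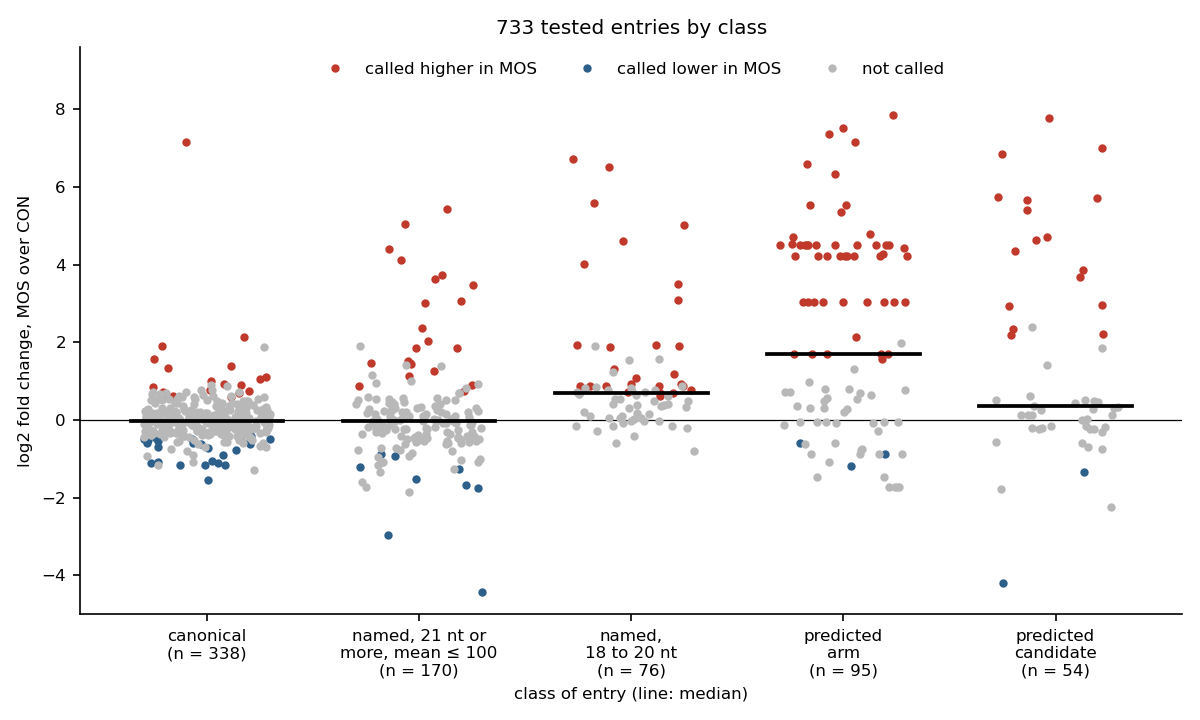
Log2 fold change of MOS over CON for all 733 tested entries in 5 classes, with called entries in red (higher) and blue (lower) and a line at the median. Canonical miRNAs centre on -0.03, named entries of 18 to 20 nt on 0.69, and the rows of equal points among predicted arms are entries that share values, many of them at 0 in CON, where the fitted value depends on the added 1.

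Epithelial markers of the miR-200 family, which maintains the epithelial state, were low but clearly apart. The 4 tested entries of the epithelial list, all of this family, were all called higher (3 without MOS2). Of these miR-200c, miR-200b and miR-200a, like the liver marker miR-122, had no CON library at 10 and passed the filter through MOS alone, so that they could only be called higher. The 8 entries matched to the list summed to 358, 348 and 172 normalized counts in MOS, against 6.32, 20.5 and 12.6 in CON. This sum leaves out miR-203a, whose name differs from the listed miR-203. The canonical hsa-miR-203a-3p had 403, 436 and 1028 in MOS, against 709, 744 and 689 in CON. It was not called (-0.34, adjusted p = 0.536), nor was its form of 20 nt (0.63, adjusted p = 0.173). hsa-miR-200c-3p had 172, 156 and 71.5 in MOS, against 0, 4.46 and 9.02 in CON (a log2 change of 5.04 with an SE of 0.85, adjusted p = 0.00622). hsa-miR-141-3p_R+1, from the same hairpin cluster in human and mouse, had 117, 138 and 63.9 in MOS, against 6.32, 12.5 and 3.61 in CON (3.73, SE 0.48, adjusted p = 0.00168). mmu-miR-200b-3p_R+1 and bta-miR-200a reached 10.2 to 31.2 in MOS, while all 3 CON libraries listed them at 0. The liver marker ssc-miR-122_R-2 had 64.8, 57.4 and 22.8 in MOS, against 6.32, 3.57 and 3.61 in CON (3.07, SE 0.46, adjusted p = 0.00372). In MOS3 the miR-200c, miR-141, miR-200b and miR-122 values were the lowest of their group. The source of this RNA, and its part in the rises of miR-192 and miR-194, was not tested.

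At 100 μM H2O2 some of these miRNAs already stood away from CON and others did not, as levels side by side show. ssc-miR-192 had 153, 131 and 142 normalized counts in CON, 416, 484 and 415 in LOS and 671, 808 and 464 in MOS. ssc-miR-146a-5p had 2605, 2457 and 2624 in CON, 2137, 2234 and 2476 in LOS and 5829, 7671 and 6107 in MOS. hsa-miR-31-3p_R+1 had 5696, 5809 and 5713 in CON, 5928, 5902 and 5845 in LOS and 2354, 2508 and 2834 in MOS. For ssc-miR-27b-5p_R-1 the LOS libraries, at 341, 382 and 380, lay between the CON and MOS libraries, with the lowest close to MOS3. The comparisons of each dose with CON share the CON libraries, and no test between doses was made here.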

How the data were processed

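Total RNA of cultured porcine granulosa cells was sequenced as small-RNA libraries, and the authors deposited 1 table with a signal per mature sequence and library, given as normalized counts. Per the labels and methods, reads of 18 to 26 nt were processed with ACGT101-miR and matched to miRBase 21.0, with hairpins folded by RNAfold and the remaining reads searched by BLAST. The normalization formula and the genome build are not given in the sources used here. As values below 400 were near whole multiples of 1 step per library (within 0.01), depth could only be estimated, and the values were not treated as counts. Low entries therefore carry the larger error, and values listed at 0 may lie below detection.

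Entries with at least 10 normalized counts in at least 3 of the 6 libraries were kept, and log2(value + 1) was fitted with limma 3.58.1 (R 4.3.3; moderated test with a trend, Benjamini-Hochberg adjustment, threshold 0.05). Fold changes are on that scale, which understates those of low entries. A share or a ratio was compared by an exact two-sided permutation test, whose smallest p is 0.1. Groups came from the labels. The analysis was tested on simulated data: of 200 changed among 733 entries, 69% were recovered at a log2 change of 1 and 93% at 2, and 4.14% of calls were false. Simulated libraries were drawn independently, with the same spread in both groups. The wider scatter of MOS and the distance of MOS3 were thus left out, and these rates may not hold for the real libraries.

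Named entries were the 12 largest rises and the 12 largest falls among canonical calls without overlap, the 10 most abundant canonical miRNAs, miR-192, up to 4 members per family list, the 5 largest calls in each direction among short and predicted entries, the 6 largest changes in arm ratio and forms called in opposite directions; others were chosen after their values were seen. The members and lists were chosen with earlier results of these data known. Of the 338 canonical entries 261 matched a gene of the RefSeq annotation of Sscrofa11.1, which was used for names and for neighbours within 10 kb. Sequences are those deposited. Alternatives covered scaling, filter, pseudocount, spread, pairing by number and each library left out. 1 blank line was dropped. Tables and plots were made with Python 3.11.15, numpy 2.4.6, pandas 2.3.3 and matplotlib 3.10.9.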

Additional observations from a re-analysis of the deposited data

How the results depend on the processing

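For the 176 entries called (136 higher, 40 lower), the count was 94 with a minimum of 50 in 3 libraries, 63 of them higher. With forms of 1 name summed 86 were higher. The 40 lower became 67 with all 9 libraries in 1 fit and 18 with equal totals. Leaving out 1 library gave 116 to 319 calls and 15 to 117 lower. For the 46 canonical calls (20 higher, 26 lower), the count was 79 with 9 libraries (32 and 47), 29 without a trend (13 lower), 24 over a mean of 1000 (7 and 17) and 25 with porcine names alone (10 and 15). Equal totals gave 46 higher and 9 lower, a mean over 50 gave 33 higher, and canonical miRNAs fitted alone gave 16 lower. Leaving out 1 library gave 22 to 141 canonical calls, 11 to 60 higher and 10 to 81 lower. The largest counts came without MOS3. The cause was not tested.

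With the replicate number as a block, 26 entries were lower, and the canonical count was 30, with 16 lower. Whether the numbers pair the libraries could not be settled with 3 libraries per group. Deviations of libraries with the same number correlated at -0.004, 0.115 and -0.042, and those with different numbers at -0.144 to 0.123.

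With forms of 1 name summed, which replaces a short form by its whole miRNA, the direction turned for ssc-miR-339_R-1 and ssc-miR-339_R-2 (-0.036, adjusted p = 0.902), ssc-miR-574_R-2 (-0.18, adjusted p = 0.309), and hsa-miR-574-5p_R-1 and hsa-miR-574-5p_R-3 (-0.16, adjusted p = 0.43). The filters on end variants and the counts of classes and lists with a library left out were chosen after seeing the data. Count models were not run because the values are normalized.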
